A study of Sus scrofa with 48 samples.

Results

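Fat was compared with liver in fasted pigs, gilt by gilt, on 24 of the 48 arrays of the study: 12 fat and 12 liver arrays from the 12 gilts (young female pigs) that had gone without feed for 3 days. These arrays were chosen by their titles alone, and the fat and liver array with the same genotype and replicate number were taken as the pair of 1 gilt. All gilts were 6 months old Yorkshire pigs bred for feed efficiency (selection was on low residual feed intake). The fasted gilts were homozygous for D298 (6 gilts) or for N298 (6 gilts) of MC4R, the melanocortin 4 receptor, through which hypothalamic neurons curb feeding. The other 24 arrays, from 6 D298 and 6 N298 gilts with free access to feed, served here only to ask whether the tissue difference was the same in fed gilts. The labels name the tissue as fat, with no depot, and both tissues were analysed whole, so more cells of a type and more RNA per cell cannot be told apart. Each tissue of a gilt was measured once, and the number of gilts limits the precision.

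During a fast, adipose tissue releases stored triglyceride as fatty acids and glycerol through a chain of lipases. Liver takes up both, burns fatty acids in mitochondria and peroxisomes, makes ketone bodies where the species has the enzymes for it, and builds glucose from glycerol, lactate and amino acids while turning the nitrogen into urea. Liver also secretes most plasma proteins and lipoproteins, and fat secretes adipokines that report on energy stores.

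Values are array signals on a linear scale, and a difference is the log2 signal in fat minus that in liver of the same gilt, so that positive values mean fat and negative values liver. A gene was called different at an adjusted p under 0.05 in limma, with the gilt as a block, adjusted by the method of Benjamini and Hochberg over 23999 probe sets, and every adjusted p given here comes from that method. Errors are SE from the limma fit. They rest on 12 gilts for fat against liver and for the genotype difference, and on 24 gilts for the feeding difference. A gene is represented by its brightest probe set, and the signal of 1 gene cannot be set against that of another. Other probe sets of a gene are given where they had the opposite sign, and for some genes where they had the same sign and another size. A gene without such values may still have probe sets that differ in size. The deposited scaling left median array signals of 167 to 192 in fat and 125 to 139 in liver, and the median difference over all 6765 genes was 0.14. Centring each array on its median moves every difference down by about 0.43, so differences between 0 and that size turn to the liver side, and no side is claimed for them.

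The labelled tissues were checked against cell type markers. The 12 hepatocyte markers measured had a mean log2 signal of 14.71 to 15.10 in liver. In 11 of 12 fat arrays it was 4.997 to 6.07, and in the fat array of D298 replicate 5 it was 9.42, where their summed signal was 4.69% of that in the liver of the same gilt. The 10 adipocyte markers had a mean of 11.47 to 12.02 in fat and of 5.86 to 6.70 in liver, with no overlap, although SLC2A4, the insulin-responsive glucose transporter, was dim in both (0.06 ± 0.21, with 1.32 and 0.35 on its other probe sets), and PCK1, also in the list, was called higher in liver (-1.92 ± 0.12). Skeletal muscle markers (16 genes) varied most: their mean log2 signal in fat ran from 5.32 to 7.35 in 6 arrays and from 9.08 to 12.52 in the other 6 (D298 replicates 4, 5 and 6, N298 replicates 3, 4 and 6), against 4.87 to 5.71 in liver. In this list 14 of 16 members were called higher in fat and in none did the tissues fail to overlap. Some results that rest on these arrays are given with and without those 6 gilts, which leaves 6. Others, among them CPT1B and FABP3, are given only with all 12. The 3' to 5' signal ratio of GAPDH, a measure of RNA integrity, had a median log2 of 1.82 in fat and 1.01 in liver (actin 1.74 and 1.72), and its part in the differences was not tested.

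**Figure D1:**
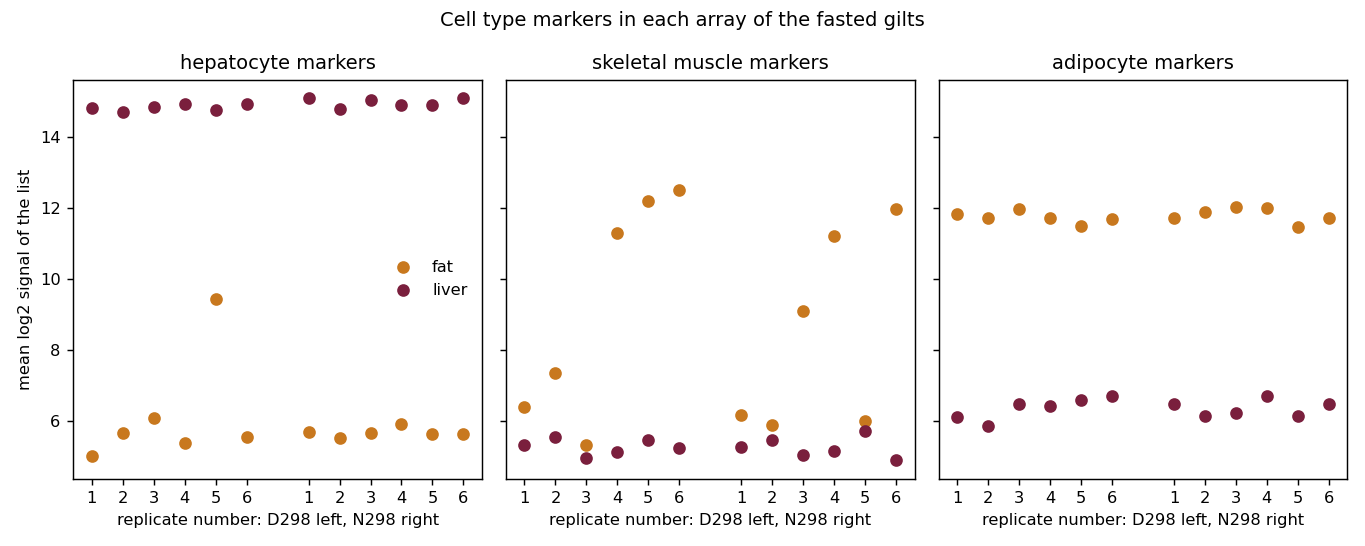
Mean log2 signal of the hepatocyte, skeletal muscle and adipocyte markers (y axis) in each fat and liver array of the 12 fasted gilts (x axis, by replicate number). Hepatocyte markers in the fat of D298 replicate 5 lie at 9.42, above 4.997 to 6.07 in the other fat arrays, and muscle markers in fat span 5.32 to 12.52.

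Fat and liver of the same fasted gilt differed in most of what the array measures. Of 6765 genes 5008 were called (74%), 2844 higher in fat (42%) and 2164 higher in liver (32%). Of these, 2401 differed at least 2-fold (35.5%), 1321 on the fat side (19.5%) and 1080 on the liver side (16%). Counts of list members given below are to be read beside these shares of all genes. The signals of the tissues did not overlap in 2371 genes (35%), and 3416 genes had the same sign in all 12 gilts. Over all 23999 probe sets 15668 were called (65.3%), 10470 toward fat (43.6%) and 5198 toward liver (21.7%), and 8832 at least 2-fold (36.8%), 6059 toward fat (25.2%) and 2773 toward liver (11.6%). The split of called probe sets depended on the scaling. After centring each array on its median it turned, to 6910 toward fat and 8387 toward liver, and after quantile normalization it was nearer to even, with 8163 and 7097.

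The steepest difference toward fat by the naming rule was in LIPE, hormone-sensitive lipase, which cuts diacylglycerol in fat cells. Its signal was 7539 to 12100 in fat (median 9521) and 3.31 to 11.1 in liver (median 4.66). All 12 fat arrays thus stood far above all liver arrays, by 10.72 ± 0.16 (adjusted p = 1.36e-18). The size is uncertain because the liver signals are near the bottom of the scale: with 32 added before taking log2 it was 7.96. Next came ADIPOQ, the adipokine adiponectin (9.16 ± 0.13), F2RL2, a protease-activated receptor (8.81 ± 0.44), the microfibril protein MFAP5 (8.66 ± 0.20), the retinol-binding RBP7 (8.64 ± 0.27) and PPARG, the master transcription factor of fat cells (8.48 ± 0.40). CILP, a matrix protein, gave 8.44 ± 0.52 on 1 probe set and 0.77 on the other. APOD, a lipocalin made outside the liver, gave 8.36 ± 0.26, lipoprotein lipase (LPL) 7.71 ± 0.34 and the lipocalin SAL1 7.52 ± 0.23.

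The liver side was led by SPP2, a secreted phosphoprotein, at -12.83 ± 0.36. Its signal was 21530 to 34790 in liver (median 27820) and 1.97 to 97.5 in fat (median 3.11). BHMT, which passes a methyl group from betaine to homocysteine, stood at -11.84 ± 0.30, and HPD, of tyrosine breakdown, at -11.50 ± 0.44. Then came APOC2, the cofactor of lipoprotein lipase (-11.46 ± 0.40), plasminogen (PLG, -10.45 ± 0.33), the plasma protein A1BG (-10.45 ± 0.28), the estrogen sulfotransferase SULT1E1 (-10.28 ± 0.45) and kininogen (KNG1, -10.27 ± 0.39). SERPINA3-2, a protease inhibitor (-10.25 ± 0.37), and tyrosine aminotransferase (TAT, -10.24 ± 0.49) closed the 10. Without D298 replicate 5 SPP2 stood at -13.26 and APOC2 at -11.85. Of the 1080 genes at least 2-fold higher in liver, 1052 stayed so without that gilt. The 167 genes at -5 or below had a median of -7.17 with it and -7.24 without it.

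**Figure D2:**
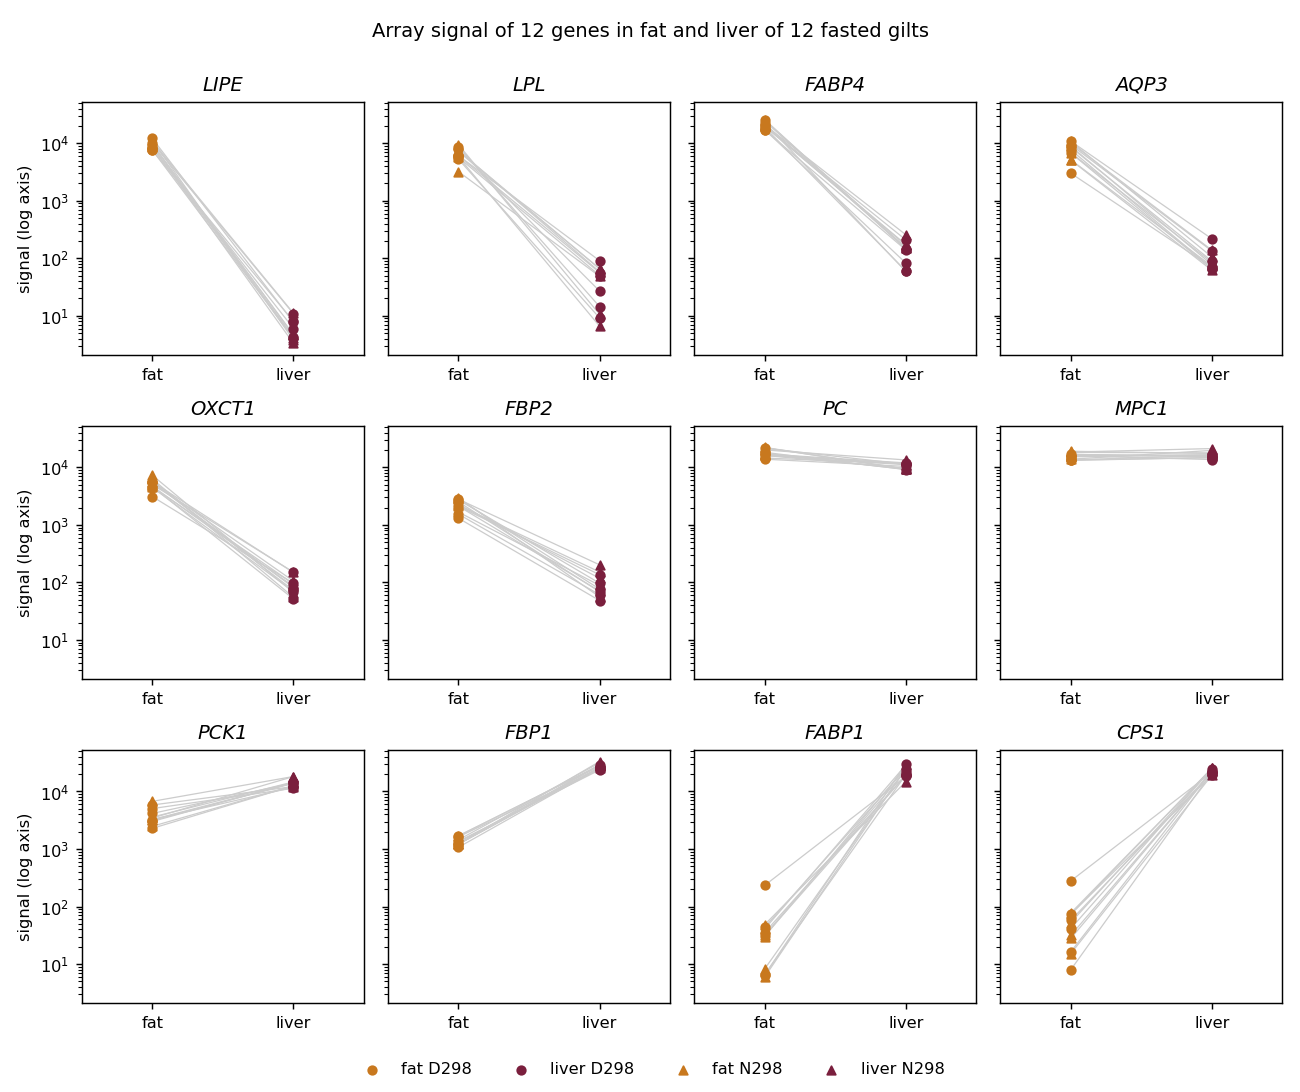
Array signal (y axis, log scale) of 12 genes in fat and liver of the 12 fasted gilts, circles for D298 and triangles for N298, with a line joining the tissues of 1 gilt. LIPE, LPL, FABP4, AQP3, OXCT1 and FBP2 are higher in fat in all 12 gilts, PC by less and MPC1 about level, and PCK1, FBP1, FABP1 and CPS1 are higher in liver, with the fat of D298 replicate 5 highest for FABP1 and CPS1.

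The release of stored fat was the first division asked about. Of 15 genes of lipolysis and the lipid droplet, 9 were at least 2-fold higher in fat (19.5% of all genes) and 2 in liver, with a median of 1.40. The 3 lipases that act in turn on triglyceride were all higher in fat. PNPLA2, adipose triglyceride lipase, gave signals of 6284 to 13810 in fat (median 10820) and 854 to 1944 in liver (median 1203), with no overlap (3.12 ± 0.10, adjusted p = 1.27e-14). MGLL, which cuts the last fatty acid from glycerol, differed by 4.59 ± 0.09. Caveolin (CAV1), a scaffold of the fat cell surface, differed by 3.98 ± 0.08. ABHD5, the coactivator of PNPLA2, had overlapping signals of 1376 to 2564 in fat and 1279 to 3403 in liver (0.04 ± 0.13, 95% interval -0.22 to 0.30). PLIN2, the droplet coat found in most cells, gave 0.12 ± 0.14 (-0.17 to 0.41), so for both the interval leaves room for less than 1.5-fold either way under the deposited scaling. The coat PLIN3 (-1.71 ± 0.09) and the droplet protein CIDEB (-9.00 ± 0.31) were higher in liver. ADRB3, the beta-3 adrenergic receptor, was dim in both tissues (-0.11 ± 0.15).

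Glycerol released by these lipases is phosphorylated in liver by glycerol kinase (GK). Its signal was 1269 to 4364 in liver (median 2172) and 482 to 1323 in fat (median 732). The ranges touched at their edge, but liver was higher in all 12 gilts (-1.55 ± 0.15, adjusted p = 3.41e-08). The other 4 of 5 glycerol genes measured were higher in fat. AQP3, a channel for water and glycerol, gave 3014 to 10870 in fat (median 8116) and 61.7 to 218 in liver (median 81.0), a difference of 6.33 ± 0.12 (adjusted p = 1.05e-17). LPIN1, a phosphatidate phosphatase of triglyceride assembly, differed by 3.40 ± 0.17. The glycerol phosphate dehydrogenases GPD1, in the cytosol, and GPD2, in mitochondria, differed by 0.62 ± 0.06 and 2.03 ± 0.28. For GPD2 the value was 1.16 with 32 added, and its other probe sets gave 0.30 and 0.74. The median of the 5 genes was 2.03, and 1.025 as the mean of all probe sets of each gene.

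Genes of fatty acid uptake and binding were mostly fat genes: 8 of 13 were at least 2-fold higher there and 3 in liver, median 1.83. LPL frees fatty acids from lipoproteins at the capillary wall. Its signal was 3215 to 9411 in fat (median 6637) and 6.59 to 90.7 in liver, and GPIHBP1, which anchors it to the endothelium, differed by 4.89 ± 0.16. ANGPTL4, which inhibits LPL, was also higher in fat (1.83 ± 0.10). The fatty acid binding proteins divided by member. FABP4 ran from 17000 to 25770 in fat and from 59.1 to 257 in liver (7.29 ± 0.16), and FABP3 (5.96 ± 0.12) and FABP5 (5.63 ± 0.13) lay on the same side. FABP1, the liver form, ran from 14820 to 30440 in liver (median 23740) and from 5.94 to 232 in fat (median 31.4), where 232 is the array of D298 replicate 5. Its difference was -9.85 ± 0.41, and -10.17 without that gilt. Of the acyl-CoA synthetases, which activate fatty acids, ACSL4 was higher in fat (1.56 ± 0.10) and ACSL1 (-1.74 ± 0.07) and ACSL5 (-3.05 ± 0.12) in liver. The carrier DBI differed by 0.34 ± 0.07, a size that centring turns over (-0.09).

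Burning of fatty acids lay on the liver side by modest amounts. Of 21 genes of mitochondrial oxidation 19 were called higher in liver (32% of all genes) and 2 in fat, with a median of -1.40 and 14 at least 2-fold. Without the 6 gilts with muscle signal in fat 16 were called higher in liver and 1 in fat. The thiolase ACAA2, which splits off acetyl-CoA, gave 14740 to 24220 in liver (median 19310) and 3175 to 5320 in fat (median 3587), with no overlap (-2.34 ± 0.07, adjusted p = 1.19e-14). The dehydrogenases ACADSB (-3.22 ± 0.12) and ACADS (-2.22 ± 0.07) and the electron carrier ETFA (-1.80 ± 0.05) behaved alike. CPT1A, the entry step of long-chain fatty acids into mitochondria, was higher in liver (-1.20 ± 0.12), with overlapping ranges of 2487 to 6117 in liver and 1428 to 2593 in fat. CPT1B, the form of muscle and other tissues, lay on the fat side (2.73 ± 0.30, and 1.70 with 32 added). HADH (-0.29 ± 0.06) and the carnitine carrier SLC25A20 (-0.24 ± 0.09) differed little, and neither was called without the 6 gilts with muscle signal in fat (adjusted p = 0.0746 and 0.167). Quantile normalization turned HADH to 0.33. The carnitine transporter SLC22A5 (0.49 ± 0.11) also lost its call without those gilts (adjusted p = 0.0795). That fit holds 6 gilts instead of 12, so a lost call alone does not show that a difference changed. In peroxisomes all 11 genes measured were called higher in liver, 7 at least 2-fold, with a median of -1.52. Without the 6 gilts with muscle signal in fat 9 were called. ACOX2, the oxidase for bile acid side chains and branched fatty acids, gave 6623 to 11680 in liver and 458 to 713 in fat (-3.94 ± 0.06). PHYH, which starts the breakdown of phytanic acid, differed by -2.13 ± 0.11, and the transporter ABCD3 by -1.52 ± 0.07.

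Too few ketone body genes were measured to tell whether synthesis and use were divided between the tissues, and those of use went both ways. BDH1, the only 1 of 6 listed synthesis genes measured, gave 664 to 1217 in liver and 15.1 to 70.6 in fat (-4.14 ± 0.16). OXCT1, which activates acetoacetate for use as fuel and is scarce in hepatocytes, gave 3110 to 7291 in fat (median 5276) and 51.5 to 151 in liver (median 83.2). All 12 fat arrays lay above all liver arrays (5.91 ± 0.15, adjusted p = 8.01e-16). ACAT2, a cytosolic thiolase, was higher in fat (0.92 ± 0.11) and BDH2 in liver (-0.70 ± 0.07).

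Most genes of glucose production were higher in liver, with exceptions. Of 14 gluconeogenesis genes 9 were called higher in liver (32% of all genes) and 3 in fat (42%), with a median of -0.9996. FBP1, fructose bisphosphatase of liver and kidney, gave 23730 to 33190 in liver (median 27270) and 1072 to 1701 in fat (median 1275), a difference of -4.35 ± 0.07 (adjusted p = 5.23e-18). SLC37A4, which carries glucose 6-phosphate to the phosphatase, differed by -4.32 ± 0.09. The phosphoenolpyruvate carboxykinases differed in size: the mitochondrial PCK2 gave 74.2 to 175 in fat and 2493 to 4987 in liver (-5.06 ± 0.14). The cytosolic PCK1 gave 11380 to 18220 in liver and 2287 to 6737 in fat (-1.92 ± 0.12). PPARGC1A, a coactivator of gluconeogenic and oxidative genes, was higher in liver (-4.99 ± 0.29, and -3.55 with 32 added to its dim fat signals). The aminotransferases GOT1 (-3.59 ± 0.09) and GOT2 (-1.49 ± 0.06) lay on the same side. On the fat side stood PC, MDH1 and FBP2. Pyruvate carboxylase (PC), which refills oxaloacetate, gave 13880 to 22260 in fat (median 17190) and 9149 to 13470 in liver (median 10740). The ranges did not overlap and the difference was 0.75 ± 0.09 (adjusted p = 5.26e-07). MDH1, the cytosolic malate dehydrogenase, differed by 1.48 ± 0.08. FBP2, the bisphosphatase known from muscle, gave 1306 to 2953 in fat and 48.3 to 202 in liver (4.61 ± 0.15), and 4.41 without the 6 gilts with muscle signal in fat. The mitochondrial pyruvate carrier MPC1 gave 13210 to 19050 in fat and 13690 to 21230 in liver, a difference of -0.07 ± 0.07 (95% interval -0.21 to 0.08), and its partner MPC2 differed by -0.51 ± 0.08. Quantile normalization turned both, to 0.45 and 0.11, so no side is given for the carrier.

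Glucose use had no common side. In glucose uptake and glycolysis 9 of 20 genes were called higher in fat and 7 in liver. These counts were near the shares over all genes (42% and 32%). The median was 0.07, a sign that turned after centring (-0.37) and without the 6 gilts with muscle signal in fat (-0.08). SLC2A2, the high-capacity transporter of hepatocytes, gave 3.20 to 28.7 in fat and 1271 to 3831 in liver (-7.57 ± 0.23). The fructose enzymes split: KHK, ketohexokinase, was a liver gene (-4.46 ± 0.11), and the fructose transporter SLC2A5 was higher in fat (3.39 ± 0.26, and 2.32 with 32 added). HK1, the hexokinase of most tissues, gave 1151 to 2135 in fat and 450 to 777 in liver (1.48 ± 0.09), and the aldolase ALDOC 2560 to 5457 in fat and 42.0 to 113 in liver (5.57 ± 0.15). SLC2A1 (-0.05 ± 0.17) and TPI1 (0.07 ± 0.11) had overlapping signals. LDHA, a lactate dehydrogenase subunit, ran from 2742 to 11560 in fat and gave 0.27 ± 0.20 over all gilts. Without the gilts with muscle signal in fat it was lower in fat (-0.39, adjusted p = 0.00361). LDHB, the other subunit, gave 0.34 ± 0.08, which centring turns (-0.10). PDK4, the kinase that shuts pyruvate dehydrogenase in fasting, was higher in fat: 9251 to 13750 against 3080 to 6644 in liver (1.247 ± 0.09). The E1 subunit PDHB was higher in liver (-0.76 ± 0.06) and the E2 subunit DLAT in fat (0.91 ± 0.09). Of 10 glycogen genes 3 were at least 2-fold higher in fat and 5 in liver. The liver phosphorylase PYGL (-1.94 ± 0.08) and UGP2, which makes UDP-glucose (-1.72 ± 0.08), were higher in liver. The synthase GYS1 (1.51 ± 0.16, with -0.01 and 1.93 on its other probe sets) and glycogenin GYG1 (1.245 ± 0.12) were higher in fat. PYGM, the muscle phosphorylase, gave 3.07 ± 0.68 with all gilts and 0.54 (adjusted p = 0.0549) without the 6 with muscle signal, and GYG1 gave 0.85, so that 1 glycogen gene was then at least 2-fold higher in fat.

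**Figure D3:**
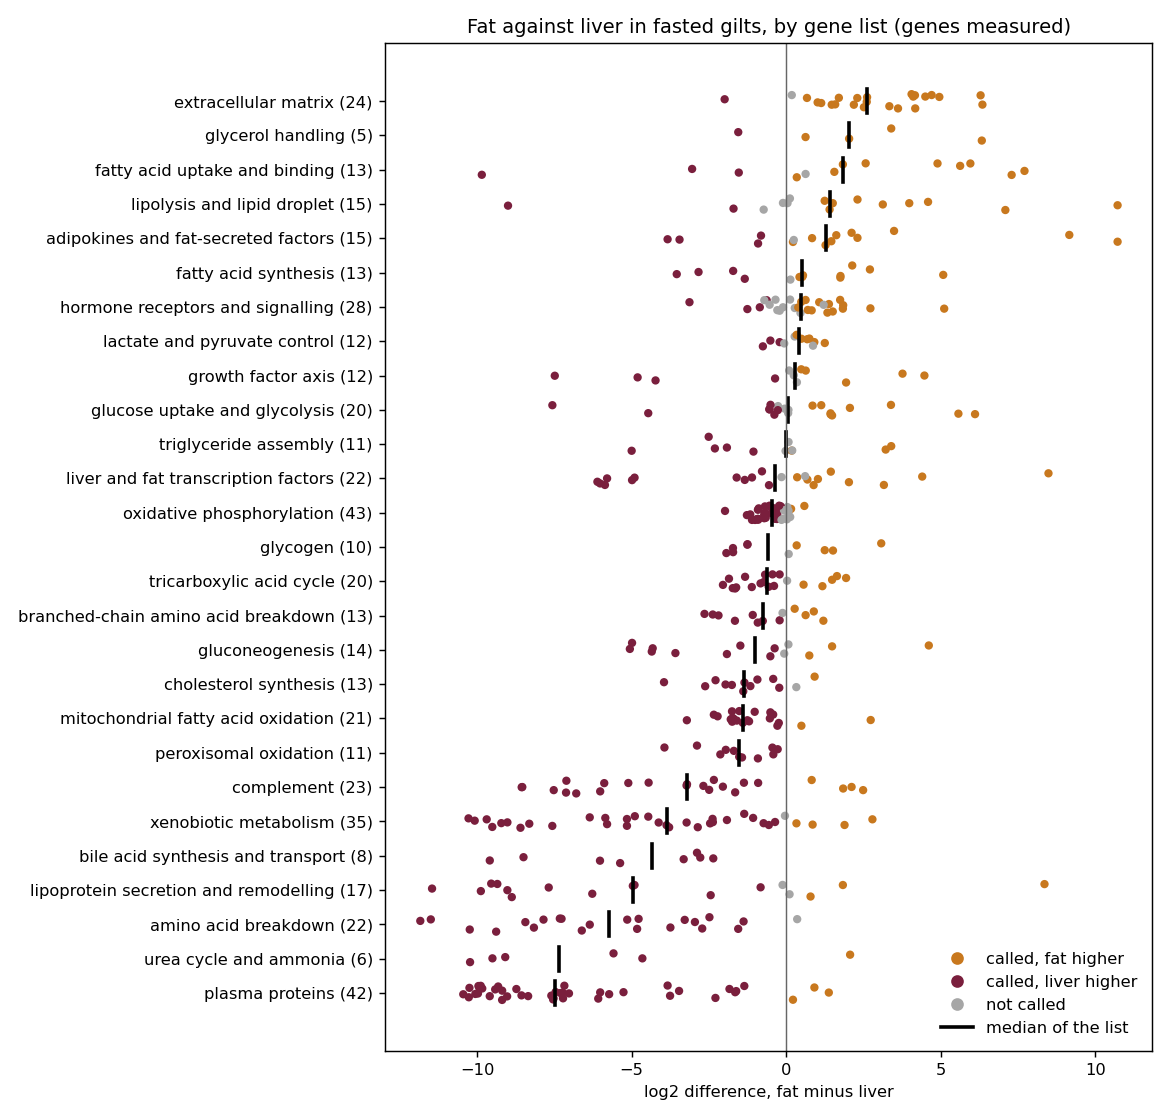
Log2 difference, fat minus liver (x axis), of each measured gene in 27 lists (y axis, number measured in parentheses), ordered by the median, with called and uncalled genes coloured apart. Plasma proteins (median -7.50), the urea cycle (-7.34) and amino acid breakdown (-5.75) lie farthest to the liver side and extracellular matrix (2.61) farthest to the fat side.

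Nitrogen disposal lay far on the liver side. The 5 enzymes of the urea cycle were all higher in liver, while GLUL, glutamine synthetase, was higher in fat. CPS1, the first step, gave 19260 to 25420 in liver (median 22580) and 7.93 to 278 in fat (median 46.9), again with D298 replicate 5 at the top of fat (-9.09 ± 0.31, adjusted p = 3.31e-14). OTC (-10.23 ± 0.24), ASS1 (-5.59 ± 0.13), ASL (-4.66 ± 0.10) and ARG1 (-9.51 ± 0.25), the next steps in order, did not overlap either. GLUL gave 7599 to 19300 in fat (median 14290) and 1966 to 6337 in liver (median 3078), a difference of 2.07 ± 0.10 (adjusted p = 2.16e-12), and its other probe sets gave 1.80 and 3.07. Among 22 other genes of amino acid breakdown 21 were at least 2-fold higher in liver (16% of all genes) and none in fat, with a median of -5.75. MAT1A, which makes S-adenosylmethionine, gave 11990 to 15980 in liver and 27.8 to 81.7 in fat (-8.16 ± 0.13). CTH, of cysteine synthesis, differed by -6.36 ± 0.10, AGXT2 by -7.33 ± 0.13 and UPB1, of pyrimidine breakdown, by -7.85 ± 0.13.

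Branched-chain amino acids, which liver classically leaves to other tissues, gave a divided list. Of 13 genes 4 were called higher in fat (42% of all genes) and 8 in liver (32%). The first step in most tissues outside the brain, BCAT2, gave 151 to 301 in fat and 53.7 to 178 in liver (0.89 ± 0.13). The second is a complex whose subunits parted: BCKDHA was higher in fat (0.63 ± 0.09) and BCKDHB in liver, with 5529 to 8028 against 712 to 1415 in fat (-2.65 ± 0.09). Its kinase BCKDK did not differ beyond its spread (-0.12 ± 0.07). Of later steps IVD (-2.38 ± 0.10), PCCA (-2.19 ± 0.09) and HIBCH (-1.66 ± 0.08) were higher in liver and MCCC2 in fat (1.20 ± 0.11).

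In lipid synthesis the routes divided. Of 13 genes of fatty acid synthesis 5 were at least 2-fold higher in fat and 4 in liver, median 0.52. ME1, malic enzyme, which supplies NADPH, gave 2400 to 4795 in fat and 56.6 to 228 in liver (5.08 ± 0.15). FASN, fatty acid synthase, gave 1296 to 5638 in fat and 382 to 875 in liver (1.75 ± 0.16), with its other probe sets between -0.01 and 1.22. PGD, of the pentose phosphate pathway, differed by 2.13 ± 0.13 and TKT by 1.75 ± 0.09. The citrate carrier SLC25A1 (-1.72 ± 0.08) and the desaturase FADS1 (-2.84 ± 0.34) were higher in liver. The carboxylase ACACA gave 2.71 ± 0.40 on a dim probe set, 1.16 with 32 added and 0.07 on its other probe set. Triglyceride assembly had 2 of 11 genes at least 2-fold higher in fat, LPIN1 and AGPAT1 (3.22 ± 0.15), and 5 in liver, among them LPIN2 (-5.002 ± 0.26), AGPAT2 (-2.51 ± 0.09) and GPAM (-2.31 ± 0.16, with 0.61 and -2.62 on its other probe sets). The last enzymes of the route overlapped: DGAT1 gave 0.07 ± 0.08 (95% interval -0.10 to 0.25) and DGAT2 -0.02 ± 0.11 (-0.25 to 0.21), which quantile normalization moved to 0.34. Cholesterol synthesis was a liver list with 11 of 13 genes called there, median -1.35, among them TM7SF2 (-3.96 ± 0.14) and MSMO1 (-2.62 ± 0.11, with -0.33 and -2.32 on its other probe sets). The early enzyme HMGCS1, however, gave 325 to 555 in fat and 212 to 514 in liver (0.33 ± 0.14, adjusted p = 0.0503). The value was 0.39 (adjusted p = 0.0200) without D298 replicate 5 and 0.45 (adjusted p = 0.0335) without the gilts with muscle signal.

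Genes of proteins secreted to blood had the lowest median of the 27 lists drawn. Of 42 plasma protein genes 39 were at least 2-fold higher in liver, with a median of -7.50. Hemopexin (HPX), which binds heme, gave 27250 to 35170 in liver and 21.9 to 491 in fat (-9.03 ± 0.31), and the clotting factors F12 (-7.22 ± 0.11) and F5 (-3.76 ± 0.07) showed how widely the members were spread. The 3 genes on the fat side were AGT, angiotensinogen, ORM1 and SAA2. AGT gave 17130 to 22400 in fat and 12690 to 22330 in liver (0.22 ± 0.07), and turned to the liver side after centring (-0.21). ORM1 and SAA2, acute phase proteins, gave 1.38 and 0.91 on their brightest probe sets, but ORM1 gave -0.29 and -11.63 and SAA2 -3.41 on others, so their side is uncertain. Of 23 complement genes 18 were at least 2-fold higher in liver, such as CFB (-7.12 ± 0.16), C5 (-7.11 ± 0.14) and C8B (-6.79 ± 0.13). The protease CFD, also known as adipsin, was higher in fat (5251 to 8815 against 1040 to 2152, 2.11 ± 0.11), as was the complement inhibitor CD59 (2.49 ± 0.07). Lipoprotein genes had a median of -4.96: APOB, the core protein of very low density particles (-9.88 ± 0.29), APOA2 (-9.02 ± 0.19), LCAT (-6.28 ± 0.07) and hepatic lipase (LIPC, -4.96 ± 0.13). The cholesterol exporter ABCA1 overlapped (-0.12 ± 0.13).

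All 8 genes of bile acid synthesis and transport were at least 2-fold higher in liver, with a median of -4.35. The uptake transporter SLC10A1 differed by -9.59 ± 0.33 and the export pump ABCB11 by -8.50 ± 0.37, with -2.51 on its other probe set. Of 35 genes of xenobiotic metabolism 27 were at least 2-fold higher in liver and 2 in fat, median -3.87. The cytochromes CYP2C33 (-9.22 ± 0.23) and CYP2C49 (-9.02 ± 0.19) and the glucuronosyltransferase UGT2B31 (-8.60 ± 0.22) stood at the liver end. CYP2B22, a cytochrome P450, was higher in fat, with 672 to 4607 against 94.9 to 363 in liver (2.79 ± 0.29, adjusted p = 1.02e-07). SULT1A3, a sulfotransferase, was also higher in fat (1.89 ± 0.28), with overlap. CYP2D25 gave -0.04 ± 0.11 on its brightest probe set and -10.39 on its other, so no side can be given.

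Of 15 genes listed as factors of fat 10 were called higher in fat (42% of all genes) and 4 in liver, median 1.27. These 15 include LIPE and NNAT, which are not secreted factors. Without the 6 gilts with muscle signal in fat 8 were called higher in fat and 4 in liver. Leptin (LEP), a hormone that reports on fat stores, was dim in fasted and in fed fat (median 385 in fed gilts), with 89.4 to 804 in fasted fat and 8.89 to 76.4 in liver (3.49 ± 0.43, 6.81 on its other probe set). ADIPOQ gave 20040 to 33790 in fat and 33.99 to 82.9 in liver. Some factors named for fat were higher in liver: RBP4, the retinol carrier (-3.84 ± 0.10, with -9.22 on its other probe set), RARRES2, chemerin (-3.45 ± 0.12), NAMPT (-0.82 ± 0.10) and ENPP2 (-0.91 ± 0.10). The growth factor IGF1, known as a liver hormone, gave 403 to 1104 in fat and 316 to 1097 in liver (0.24 ± 0.14, adjusted p = 0.126). It was 0.35 (adjusted p = 0.00957) without D298 replicate 5, and its other probe sets gave 0.56 and -0.26. Its binding proteins were divided: IGFBP1 (-7.49 ± 0.23, with 0.18 on its other probe set) and IGFBP2 (-4.81 ± 0.30) were higher in liver and IGFBP5 (3.76 ± 0.19) and IGFBP6 (4.47 ± 0.27) in fat. The receptor IGF1R (1.83 ± 0.12, with 0.06 on its other probe set) and STAT5A (1.94 ± 0.11), a growth hormone signalling factor, were higher in fat. HSD11B1, which regenerates cortisol, gave 14660 to 28210 in liver and 1695 to 4510 in fat (-3.13 ± 0.13). Of transcription factors, HNF4A (-5.87 ± 0.10), NR5A2 (-4.91 ± 0.26) and NR1H3 (-1.60 ± 0.07) were higher in liver and KLF4 (4.40 ± 0.14) in fat. PPARA, the factor that turns on fatty acid oxidation in fasting, gave 1.02 ± 0.41 on a dim probe set and -3.80 on its other, so no side can be given.

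Marker genes of supporting cells also differed between the tissues. Extracellular matrix genes were higher in fat in 22 of 24 cases, 21 at least 2-fold, median 2.61, as in MMP2 (4.95 ± 0.10), DCN (4.70 ± 0.12, with -0.71 on its other probe set) and COL6A3 (4.50 ± 0.11). The exception was fibronectin (FN1), also a plasma protein made by hepatocytes (-1.99 ± 0.11). All 11 fibroblast and stellate markers and 9 of 12 endothelial markers were higher in fat (42% of all genes). Endothelial examples were PECAM1 (2.62 ± 0.07) and VWF (4.19 ± 0.19, with -0.40 and -0.03 on its other probe sets). Without the 6 gilts with muscle signal in fat the numbers called were 9 and 10. DES is in both the fibroblast and the muscle list. Of 11 macrophage markers 9 were higher in liver, among them CD14 (-4.86 ± 0.13), AIF1 (-2.13 ± 0.07) and CTSS (-1.98 ± 0.07). The antigen presentation chain CD74 was higher in fat (0.82 ± 0.09). Of 11 lymphocyte markers 9 were higher in liver, with a median of -0.60, and 5 without the gilts with muscle signal in fat. The summed signal of the macrophage markers was 7947 to 18086 in fat and 37522 to 60127 in liver, and that of the fibroblast and stellate markers 37238 to 57296 in fat and 5896 to 9587 in liver. What part these cells have in the differences of other genes was not tested.

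In several pairs of related genes 1 member was higher in liver and the other in fat. The lower tissue can still hold signal of a member: FBP1 gave 1072 to 1701 in fat. Of 33 pairs of isozymes or related proteins listed, 16 had both partners measured. In 9 of 16 the first partner was called higher in liver and the second higher in fat. The pairs were picked, many with the form known from liver named first, so this count does not show how often related genes divide. The widest separations were FABP1 against FABP4 and LIPC against LPL. FBP1 and FBP2, LPIN2 and LPIN1, MAT1A and MAT2A (1.23 ± 0.10), PYGL and PYGM, CPT1A and CPT1B, BCAT1 (-1.08 ± 0.23) and BCAT2, and PFKL (-0.38 ± 0.08) and PFKP (1.44 ± 0.11) divided in the same way. BCAT1, better known from brain, is not a liver form, so this pair is no split between a liver and an extrahepatic form. After centring the number was 9, and without the gilts with muscle signal in fat it was 8, the pair of phosphorylases being lost. Both arginases (ARG2 -4.75 ± 0.23, with 0.10 on 1 of its other probe sets) and both phosphoenolpyruvate carboxykinases were higher in liver.

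**Figure D4:**
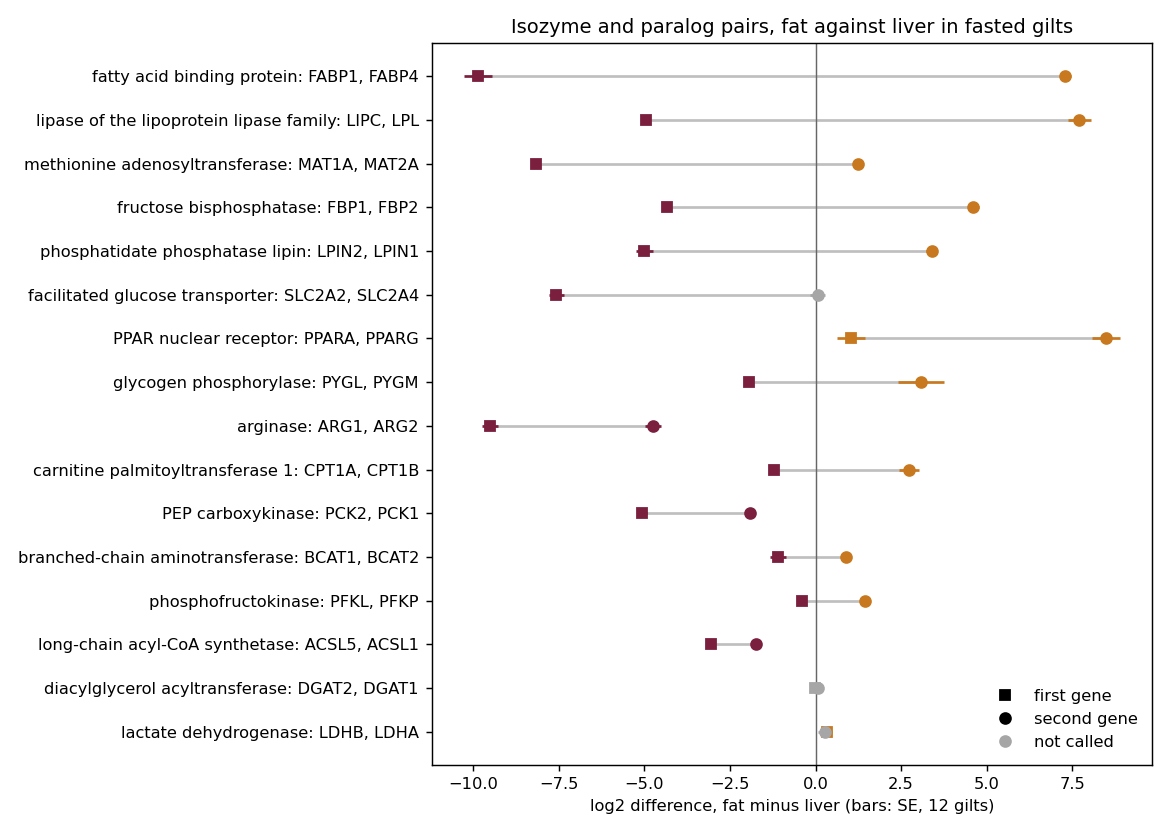
Log2 difference, fat minus liver (x axis, mean with SE over 12 gilts), of both genes of 16 isozyme or paralog pairs (y axis), squares for the first and circles for the second gene named. FABP1 at -9.85 and FABP4 at 7.29 are the pair farthest apart, and both diacylglycerol acyltransferases lie near 0.

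Mitochondrial genes differed by little, mostly toward liver. Of 43 genes of oxidative phosphorylation 32 were called higher in liver and 2 in fat, with a median of -0.48, and 5 were at least 2-fold. NDUFS3, of complex I, gave 2680 to 3656 in liver and 1158 to 1587 in fat (-1.27 ± 0.06), though its other probe sets gave -1.12 and 2.68. NDUFS1 (-1.17 ± 0.06) and the ATP synthase gene ATP5G3 (-0.95 ± 0.06) also had no overlap. Several members lay within 0.5 of 0, such as NDUFB5 (0.02 ± 0.06), COX6C (0.07 ± 0.07) and CYCS, cytochrome c (-0.09 ± 0.10). Under centring the 3 lie at -0.41, -0.36 and -0.53. In the tricarboxylic acid cycle 14 of 20 genes were called higher in liver (32% of all genes) and 5 in fat (42%), median -0.63. The mitochondrial MDH2 gave 4765 to 7469 in liver and 1183 to 1765 in fat (-2.05 ± 0.06), and SUCLG2 (-1.85 ± 0.07) and FH (-1.62 ± 0.06) went with it. Citrate synthase (CS), the entry to the cycle, was higher in fat, with 6493 to 12640 against 2209 to 3267 in liver (1.94 ± 0.09, adjusted p = 2.59e-12).

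To see which of these differences belonged to the fasted state, the gap between the tissues was compared with that in 12 fed gilts, which share no array with the fasted ones. The gap differed for 1650 of 6765 genes (24.4%), 612 toward fat (9.05%) and 1038 toward liver (15.3%). After centring these numbers were 297 and 1448. Over probe sets it differed for 3900 (16.3%), 2138 toward fat (8.91%) and 1762 toward liver (7.34%), a split that centring turns to 1021 and 2561. Oxidative metabolism moved toward liver: 40 of 43 genes of oxidative phosphorylation, 17 of 20 of the tricarboxylic acid cycle, 14 of 21 of mitochondrial fatty acid oxidation, 9 of 13 of branched-chain amino acid breakdown and 8 of 11 of peroxisomal oxidation did so, and none of these lists had a gene that moved toward fat. After centring the numbers toward liver were 41, 18, 15, 10 and 9. Without the 6 fasted gilts with muscle signal in fat they were 39, 14, 13, 9 and 3. Fed fat carried muscle signal too, with a mean log2 of the muscle markers of 4.82 to 11.84, above 8 in 8 of 12 arrays. Without those fed gilts as well, which leaves 6 fasted and 4 fed gilts, the numbers were 34, 13, 9, 7 and 2, beside 453 over all genes. The part of muscle signal in the shift was not tested further. In fed gilts the median gaps of the first 2 lists were 0.31 and 0.31, on the fat side, against -0.48 and -0.63 in fasted gilts. The levels moved more in fat than in liver: fasted minus fed, the median of the oxidative phosphorylation genes was -0.79 in fat and 0.04 in liver, and that of the cycle -0.56 and 0.11, beside 0.01 and 0.00 over all genes. MDH2, for instance, had a median signal of 3529 in fed and 1599 in fasted fat, and of 5422 in fed and 6946 in fasted liver (gap difference -1.495 ± 0.09, adjusted p = 8.7e-12).

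The move toward liver was not particular to oxidative lists. It was called for 9 of 14 gluconeogenesis genes (2 toward fat) and 10 of 20 of glucose uptake and glycolysis (1 toward fat). In lactate and pyruvate control it was 8 of 12 and in fatty acid synthesis 6 of 13, with 0 toward fat in both. Without the fasted and fed gilts with muscle signal in fat these numbers toward liver were 9, 9, 7 and 4. The median gap of gluconeogenesis was -0.05 in fed and -0.9996 in fasted gilts. Single genes of pyruvate handling shifted the same way. The gap of PC was 2.21 in fed and 0.75 in fasted gilts, with a median liver signal of 2917 in fed and 10740 in fasted gilts, and of 13490 and 17190 in fat (difference -1.46 ± 0.11, adjusted p = 6.9e-10). MPC2 went from 1.504 to -0.51 (difference -2.02 ± 0.12), PDHB from 1.27 to -0.76 (-2.03 ± 0.12) and LDHB from 2.07 to 0.34 (-1.73 ± 0.12). PCK1 went the other way, from -3.41 in fed to -1.92 in fasted gilts, with median fat signals of 979 and 3353 and little change in liver (difference 1.49 ± 0.36, adjusted p = 0.0047), a call lost without the fasted gilts with muscle signal (1.22, adjusted p = 0.112) and kept without the fed ones as well (2.36, adjusted p = 0.000313). Cholesterol synthesis also moved toward fat, in 9 of 13 genes. Its members had a median of -1.81 in liver and -0.84 in fat, fasted minus fed, so that the levels were lower in both tissues of fasted gilts and the median gap was -1.35 beside -2.12 in fed gilts.

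By the naming rule the 5 largest moves toward fat were CYP2B22 (-0.92 in fed to 2.79 in fasted gilts, difference 3.71 ± 0.47), SQLE, squalene epoxidase (-3.89 to -1.35, 2.54 ± 0.25), HMGCS1 (-2.12 to 0.33, 2.44 ± 0.21), the receptor GPRC5A (2.19 to 4.36, 2.17 ± 0.50) and ACSL4 (-0.60 to 1.56, 2.15 ± 0.28). CYP2B22 had median fat signals of 391 in fed and 1738 in fasted gilts and liver signals of 845 and 229, so both tissues moved. GPRC5A lost its call without the fasted gilts with muscle signal in fat (1.61, adjusted p = 0.133) and kept it without the fed ones as well (2.78, adjusted p = 0.0115). The 5 toward liver were PGLYRP2, a peptidoglycan hydrolase (-1.82 to -5.63, -3.81 ± 0.25), CKB, brain-type creatine kinase (4.13 to 0.52, -3.61 ± 0.32), SLC25A1 (1.61 to -1.72, -3.33 ± 0.13), the cytochrome CYP2C36 (-2.79 to -5.85, -3.06 ± 0.68) and the imprinted gene NNAT (5.19 to 2.30, -2.89 ± 0.35). CKB and SLC25A1 moved through fat: the median fat signal was 2363 in fed and 225 in fasted gilts for CKB, and 13080 and 1735 for SLC25A1. NNAT moved through liver, from 47.0 to 392. CYP2C36 was not called without the fasted and fed gilts with muscle signal (-2.90, adjusted p = 0.226). The gap was wider toward fat in fasted gilts for AQP3 (difference 1.48 ± 0.33), LPIN1 (1.33 ± 0.23) and GLUL (1.32 ± 0.17). The glycerol list as a whole went both ways: of its 5 genes 2, AQP3 and LPIN1, moved toward fat and 2 toward liver. AQP3 was not called without the fasted and fed gilts with muscle signal (1.36, adjusted p = 0.269). The gap of the lipases LIPE (0.30 ± 0.23), PNPLA2 (0.00 ± 0.13) and MGLL (-0.33 ± 0.14) was not called different between fed and fasted gilts.

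**Figure D5:**
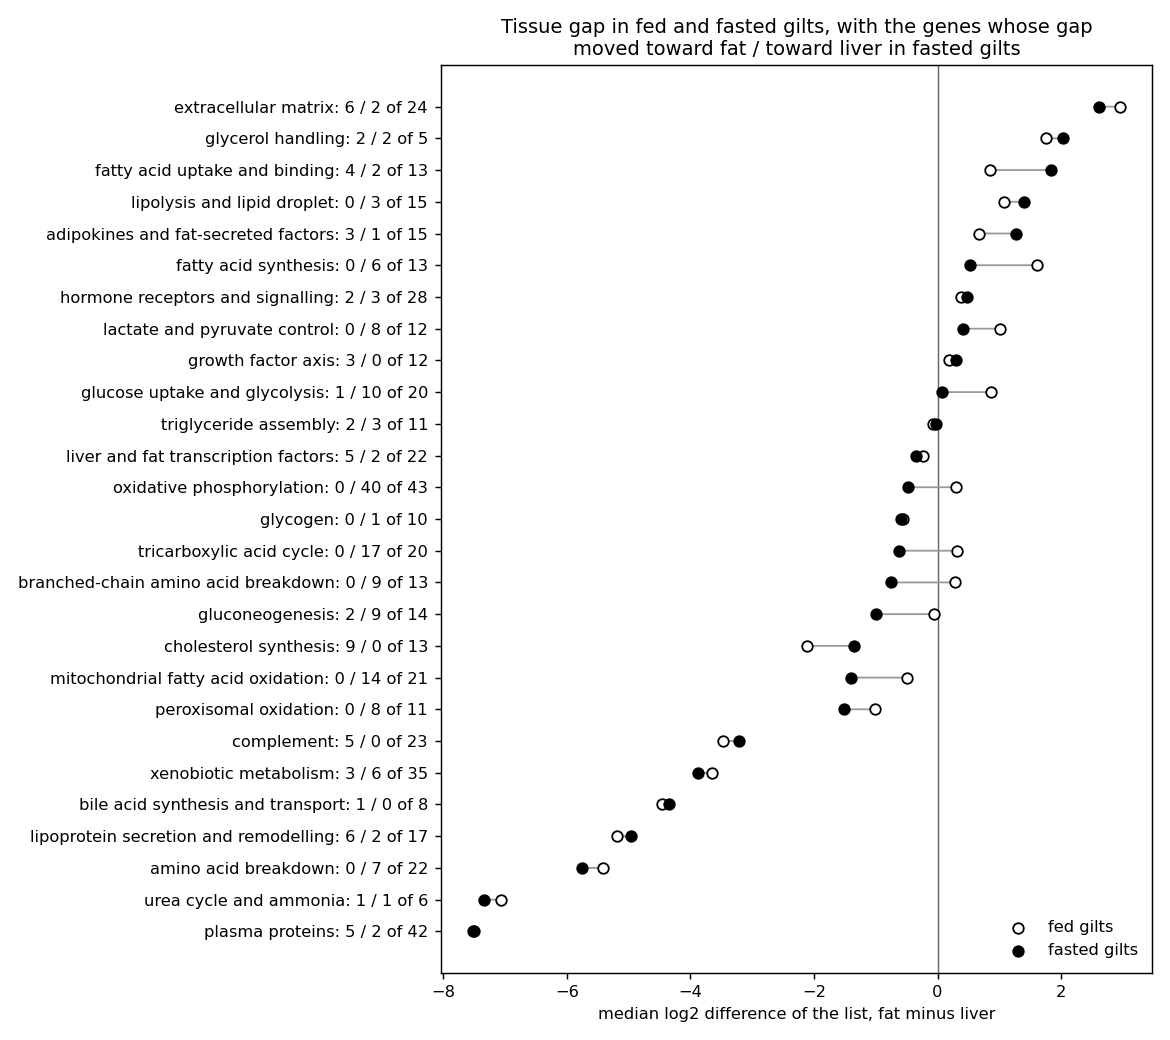
Median log2 difference, fat minus liver (x axis), of 27 gene lists in fed (open) and fasted (filled) gilts, with the number of genes whose gap moved toward fat and toward liver beside each name. The medians of oxidative phosphorylation and the tricarboxylic acid cycle lie at 0.31 in fed gilts and at -0.48 and -0.63 in fasted gilts, while plasma proteins stay at -7.50 to -7.52.

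The MC4R genotype left no detectable mark on the tissue gap. Of 23999 probe sets none had a gap that differed between N298 and D298 gilts in limma (0%, 6 gilts each), at a smallest adjusted p of 0.988, and 1089 (4.54%) had an unadjusted p under 0.05. In simulated data of this design 58% of 4-fold and 26% of 2-fold differences were recovered, so many differences of these sizes, and more of the smaller ones, could be missed. The 5 genes with the smallest p were CFB (N298 minus D298, -0.99 ± 0.21), SPI1 (0.87 ± 0.20), PPAT (0.92 ± 0.21), TRPT1 (0.93 ± 0.22) and RARRES2 (-0.71 ± 0.18), with adjusted p from 0.988 to 0.998.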

How the data were processed

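RNA from fat and liver was hybridised to a pig oligonucleotide array after one-cycle biotin labelling, 1 array per tissue of a gilt. The deposited values are signal intensities per probe set on a linear scale, which the authors made with the MAS5 algorithm of affy, per the submitters' processing notes, and the versions are not given in the sources used here. Here 124 control probe sets were left out and log2 was taken of the other 23999 with nothing added. Fat minus liver was fitted in limma 3.58.1 (R 4.3.3, data.table package 1.17.8) on the 24 arrays of fasted gilts, with the gilt as a fixed block of 12 levels and eBayes with trend. The feeding difference was fitted in limma on all 48 arrays (24 gilts) and the genotype difference on the 24 arrays of the 12 fasted gilts. Both fits had the gilt as a fixed block, a tissue term and a term for tissue by genotype. The feeding fit also had a term for tissue by feeding. P-values were adjusted by Benjamini-Hochberg over all probe sets.

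The pairing comes from the labels, which give the same genotype, feeding and number in both tissues. As a check, each liver array's deviations from its group were closest to those of the fat array with which it was paired, in 12 of 12 gilts (r of 0.0405 to 0.249). Each gilt gave 1 array per tissue, so the spread is that between animals.

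Genes were named through the platform annotation: 10069 probe sets had 1 symbol, 198 had several and 13732 had none, and 9961 matched a RefSeq gene. The 6765 genes were each read by the brightest probe set over all arrays, and in 679 of the 2261 genes with several probe sets these disagreed in sign. Named were the 10 genes farthest to each side that were called, had 1 sign in all 12 gilts and lay above the median probe set of the higher tissue. To these came up to 4 members by p on the main side of each of 39 gene lists and 2 on the other, and all members of the glycerol, ketone body, gluconeogenesis and adipokine lists and of the isozyme pairs. Members with a 95% interval within -0.5 to 0.5, the 5 largest feeding differences each way and the 5 smallest p for genotype completed the names. The members and lists were chosen with earlier results of these data known. Tested on simulated data, the tissue fit recovered 62% of 2-fold and 82% of 4-fold differences, the feeding fit 40% and 70%. There 50 of 23999 probe sets were changed at each size, far fewer than these 2 fits called in the real data. The recovered shares therefore do not give the power of these fits here. Alternatives were other scalings, a filter on dim probe sets, 32 added before log2, array weights, fits without trend or block, a random block, the mean of all probe sets of a gene, and each gilt left out. Leaving out the 6 fasted gilts with muscle signal in fat (mean log2 above 8), and for the feeding difference also the 8 fed ones, was chosen after seeing the data. Figures used Python 3.11.15, pandas 2.3.3, NumPy 2.4.6 and Matplotlib 3.10.9.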

Additional observations from a re-analysis of the deposited data

Results flagged for a closer look

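Among 98 groups of 6 arrays or gilts, 9 held a sample that stood apart from the other 5, where chance gives about 1 in 20 groups, or 4.9. In signals these were the hepatocyte markers in the fat of D298 replicate 5 (mean log2 9.42), the keratinocyte markers in the fat of D298 replicate 2 (5.83) and the macrophage markers in the liver of D298 replicate 5 (10.98). In medians of fat minus liver they were ketone body synthesis in N298 replicate 2 (-5.75, 1 gene), plasma proteins in D298 replicate 5 (-5.53), complement in N298 replicate 3 (-3.41) and glycogen in N298 replicate 6 (-2.558e-05). The others were oxidative phosphorylation in N298 replicate 4 (-0.27) and extracellular matrix in N298 replicate 1 (3.13).

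The tissue gap differed between fasted and fed gilts for 3900 probe sets in limma. Of the genes named in this comparison, the gap was shifted toward fat for CYP2B22 (3.71), SQLE (2.54), HMGCS1 (2.44), GPRC5A (2.17), ACSL4 (2.155), PCK1 (1.49), AQP3 (1.48), LPIN1 (1.33) and GLUL (1.32). It was shifted toward liver for PGLYRP2 (-3.81), CKB (-3.61), SLC25A1 (-3.325), CYP2C36 (-3.06), NNAT (-2.89), PDHB (-2.03), MPC2 (-2.02), LDHB (-1.73), MDH2 (-1.495) and PC (-1.46).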

How the results depend on the processing

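Without the replicate block, which drops the pairing by gilt, 15455 probe sets were called in limma instead of 15668 (10357 toward fat, 5098 toward liver). The feeding difference gave 1826 toward fat and 1587 toward liver instead of 2138 and 1762, and the genotype difference 0. The block changed the call of 3 of the 199 genes named. Leaving out each gilt in turn gave 15308 to 15489 called probe sets, 5932 to 6082 at least 2-fold higher in fat and 2707 to 2811 in liver. Median-centring moved most: 6910 probe sets were then called toward fat and 8387 toward liver, 3895 and 4487 of them at least 2-fold, and the feeding difference gave 1021 toward fat. Among brighter probe sets alone 3659 were at least 2-fold higher in fat, by construction out of fewer tested. Without the 6 gilts with muscle signal in fat the feeding difference gave 1270 toward fat, and without the fed gilts with muscle signal too it gave 484 toward fat and 728 toward liver, with fewer gilts each time. The genes named below changed sign and were called before or after the change. After centring they were ABHD5 (-0.39), AGT (-0.21), COX6C (-0.36), DBI (-0.0914), DGAT1 (-0.36), LDHB (-0.0958), NDUFB5 (-0.41) and TPI1 (-0.36). After quantile normalization they were DGAT2 (0.34), HADH (0.33), MPC1 (0.45) and MPC2 (0.11). As the mean of all probe sets of a gene, NDUFS3 (0.0957), ORM1 (-3.51), PPARA (-1.39) and SAA2 (-1.25) changed side, and LDHA (-0.39) did so without the gilts with muscle signal. The cause of these changes was not tested. Under centring, genes called in neither fit also fell below 0, such as PLIN2 (-0.31), IGF1 (-0.19), LDHA (-0.16) and HMGCS1 (-0.11). No other alternative turned a gene among the 199 that was called before or after. Low signals limit the size of large differences, since a probe set near the bottom of the scale in 1 tissue has a poorly measured ratio.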
